A study of Rattus norvegicus with 6 samples.

Results

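The levels of miR-21, a microRNA (miRNA) of injured and fibrotic tissue, were described in plasma exosomes of male Sprague Dawley rats. Among the 420 mature miRNAs of the deposited table, 2 carry this name, rno-miR-21-5p and rno-miR-21-3p, the 2 arms of 1 precursor, and each is listed in 1 row. miR-21-5p was chosen by its abundance in these same libraries, so its levels and ranks are given as a description. The comparison between the treatments, the ratio of the arms and the correlations were not used for that choice. A high ratio of the arms is, however, favoured by the abundance that was used. Earlier results of these data were known when it was made, however. The 6 libraries fall into 2 groups of 3. EXO1 came from rats that received intraperitoneal injections of the solvent alone, 5% DMSO in PBS, for 7 days, and EXO2 from rats that received 10 mg/kg melatonin in the same solvent. Plasma was collected on day 8 in both groups. The sources name no other treatment of these rats, and the ischemia model of the study was applied to rats that received exosomes. The paper's methods name saline with 5% DMSO in place of PBS, and an isolation kit in place of the centrifugation that the sample labels describe. It is not stated if the libraries are from different rats, so p-values measure the spread between these libraries, which may be technical.

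miRNAs are short RNAs that guide the silencing complex to messenger RNAs, mainly by pairing of their bases 2 to 8, the seed. Of the 2 strands cut from the precursor hairpin, 1 is usually kept as the guide, and for miR-21 this is the 5p strand. miR-21-5p is made in many cell types, fibroblasts, smooth muscle cells and macrophages among them. Its transcription responds to NF-κB, AP-1 and STAT3, and its known targets include Pdcd4, a regulator of translation that promotes inflammatory signaling, and Spry1, which restrains ERK signaling. In macrophages, miR-21-5p is induced after TLR4 stimulation and represses Pdcd4, which is why it is of interest beside the TLR4/NF-κB pathway of this study. Neither a target nor TLR4 was measured in these libraries.

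The sequences of the hairpin and its arms are shown because every value that follows is a count of reads assigned to 1 of these arms. In the RefSeq annotation of assembly GRCr8, Mir21 lies at chr10:71902600-71902691 on the minus strand. It lies 531 bases beyond the end of Vmp1 (chr10:71903223-72002337), the gene of a vacuole membrane protein on the same strand. The build that the authors used is not given in the sources used here. In the hairpin, the capitals mark the mature arms, the 5p arm at bases 18 to 39 and the 3p arm at bases 56 to 77. In the mature sequences, the capitals mark the seed.
Mir21 hairpin: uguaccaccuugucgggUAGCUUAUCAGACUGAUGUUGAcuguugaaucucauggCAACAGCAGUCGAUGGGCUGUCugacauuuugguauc
rno-miR-21-5p: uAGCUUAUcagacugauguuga
rno-miR-21-3p: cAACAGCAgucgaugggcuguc
No other of the 693 mature rat miRNAs in the RefSeq table has either seed. Of the 420 miRNAs listed, 382 matched that table by name.

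miR-21-5p was among the most abundant miRNAs in every library, with its lowest and its highest level both in EXO1. Values are normalized CPM, the reads of a miRNA divided by a scaling factor of the library. In EXO1 replicates 1, 2 and 3, miR-21-5p stood at 8852, 39592 and 72034 normalized CPM. In EXO2 it stood at 13345, 19698 and 17840. Thus 2 EXO1 libraries lay above every EXO2 library and the other lay below all of them, and the groups overlapped. The group means were 40159 ± 31595 in EXO1 and 16961 ± 3267 in EXO2 (SD, n = 3 each). The highest EXO1 value was 8.14 times the lowest, against 1.48 times in EXO2. These values rest on 13971, 183007 and 326094 reads in EXO1 and on 60282, 109741 and 67040 reads in EXO2, so counting error is small beside the spread between libraries.

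**Figure D1:**
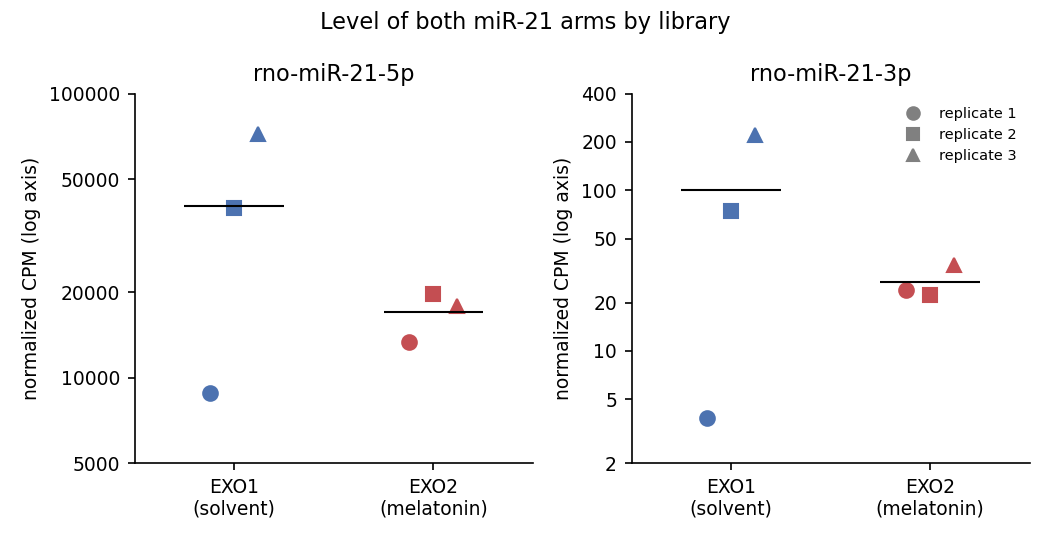
Normalized CPM (log axis) of rno-miR-21-5p and rno-miR-21-3p in each library. Symbols mark replicate numbers and black lines the group means. EXO1 replicate 1 is the lowest point and EXO1 replicate 3 the highest for both arms, and the EXO2 points lie between them.

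By rank, miR-21-5p was 15th, 3rd and 1st among the miRNAs of EXO1 replicates 1, 2 and 3, and 7th, 6th and 7th in EXO2. In EXO1 replicate 3 it led the library, directly above miR-143-3p of smooth muscle at 71664 normalized CPM. In EXO1 replicate 2 it followed miR-451-5p, the erythroid miRNA, at 91368, and preceded miR-148a-3p at 19259. Its neighbours in EXO1 replicate 1 were miR-320-3p at 9114 and miR-184 at 8383. In EXO2 it stood next to let-7 family members and miR-148a-3p, between let-7i-5p at 13356 and let-7g-5p at 12132 in replicate 1, between miR-148a-3p at 21670 and let-7g-5p at 18601 in replicate 2, and between miR-148a-3p at 20048 and miR-92a-3p at 15130 in replicate 3. Levels of different miRNAs are compared here as reads of whole mature strands, whose capture by adapter ligation can differ.

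As a share of all miRNA reads, miR-21-5p took 0.238%, 8.03% and 11.6% in EXO1 and 1.99%, 2.20% and 1.80% in EXO2. The lowest of these shares has a 95% Wilson interval of 0.234% to 0.242% and the highest of 11.5% to 11.6%, which cover counting error only, because PCR copies of 1 molecule were not told apart. Libraries held 2279500 to 5868405 reads, and few miRNAs set these shares. A list of 9 muscle miRNAs took 82.6% of EXO1 replicate 1 and 23.2% of EXO1 replicate 2, against 0.739% to 1.51% in the other libraries. Nearly all of this was miR-1b, at 3009709 and 111134 normalized CPM in EXO1 replicates 1 and 2. The next member, miR-206-3p, stood at 35719 and 1107 there, and 2 of the 9 were at 0 in EXO1 replicate 1. A list of 10 erythrocyte miRNAs, led by miR-451-5p, took 7.87% to 24.0% in EXO1 and 57.7% to 67.9% in EXO2. Outside both lists, miR-21-5p took 2.49%, 15.2% and 13.2% of the remaining reads in EXO1 and 4.84%, 6.45% and 5.73% in EXO2. EXO1 replicate 1 was thus the lowest and the other EXO1 libraries the highest on this measure as well. The mean difference of EXO2 minus EXO1 was -4.62 percentage points (2-sided exact permutation test, p = 0.4, where 3 against 3 libraries cannot go below p = 0.1). It was -8.52 points without EXO1 replicate 1 and -2.16 points without EXO1 replicate 2. Fewer cells or vesicles of a type and less miR-21 in each cannot be told apart in these samples.

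**Figure D2:**
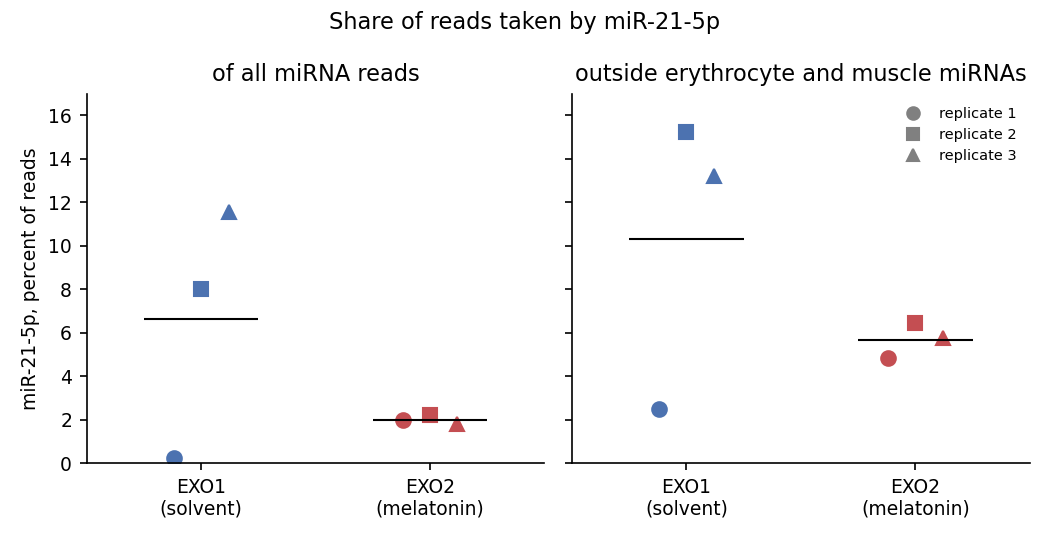
Percent of reads taken by miR-21-5p in each library, of all miRNA reads (left) and of the reads outside erythrocyte and muscle miRNAs (right). Black lines are group means. In both panels EXO1 replicate 1 is lowest (0.238% and 2.49%) and EXO1 replicates 2 and 3 are above every EXO2 library.

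Between the groups, neither arm of miR-21 passed the test. The question of this comparison was whether melatonin changes the miRNA content of plasma exosomes. On log2(normalized CPM + 1), the difference of EXO2 minus EXO1 for miR-21-5p was -0.81 (log2 fold change, standard error 0.74, 95% interval -2.39 to 0.78, limma adjusted p = 0.538 over 410 miRNAs). The interval holds changes in either direction, so 3 libraries per group do not settle the sign. Over the 16 alternatives the adjusted p ranged from 0.115 to 0.906. The value turned on single EXO1 libraries. Without EXO1 replicate 1 it was -1.67 with a limma adjusted p of 0.115, and with EXO1 replicate 3 left out instead it was -0.16 with a limma adjusted p of 0.906. Scaling by library totals only gave -0.50, totals without the erythrocyte and muscle miRNAs gave -0.49, and median-ratio size factors gave -1.02.

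The other miRNAs of the table form the background of this value. At a limma adjusted p under 0.05, 0 of the 410 tested (0%) were called, and 54 had an unadjusted p under 0.05. At a fold change over 1.5 with an unadjusted p under 0.05, the thresholds of the study's methods, 54 (13.2%) were called, 24 higher and 30 lower in EXO2, and neither arm of miR-21 was among them. Without EXO1 replicate 1 the count was 103 and miR-21-5p passed these thresholds as well (unadjusted p = 0.0119 in limma), and without EXO2 replicate 3 it was 33. The split was 8 higher and 22 lower with library totals only, 18 and 42 with median-ratio factors, and 37 and 26 with totals that left out the erythrocyte and muscle miRNAs. The median log2 fold change over the 410 miRNAs was -0.56, so the value of miR-21-5p lay 0.25 below the median. The scalings moved this median by 0.13 with library totals, by -0.28 with median-ratio factors and by 0.18 with totals without the 2 lists. Relative to the median of each scaling, miR-21-5p stood at -0.07, -0.18 and -0.11. Its place against the median was less steady otherwise. It was -1.17 without EXO1 replicate 1, 0.25 above the median without EXO1 replicate 3, and -0.05 without EXO2 replicate 1. Among the 256 miRNAs with 10 or more in at least 3 libraries, whose median was -0.055, it was -0.75.

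Within a library, the ratio of miR-21-5p to other miRNAs does not depend on the scaling. A list of 8 broadly expressed miRNAs was used, miR-103-3p, miR-191a-5p, miR-23a-3p, miR-24-3p, miR-26a-5p, miR-30d-5p, miR-425-5p and miR-93-5p. The mean log2 ratio of miR-21-5p to these 8 was 1.81, 4.27 and 4.55 in EXO1, against 2.24, 2.81 and 2.59 in EXO2. Again EXO1 replicate 1 lay below and the other EXO1 libraries above every EXO2 library. The means were 3.55 ± 1.51 in EXO1 and 2.55 ± 0.29 in EXO2 (SD, n = 3 each), a difference of -1.0 (2-sided exact permutation test, p = 0.4, with 0.1 the smallest possible). The difference was -1.87 without EXO1 replicate 1, -0.64 without EXO1 replicate 2 and -0.50 without EXO1 replicate 3. Of the 8 ratios, 7 had the lower mean in EXO2, from -1.87 for miR-191a-5p to -0.17 for miR-24-3p, and the ratio to miR-26a-5p had a difference of 0.29. Exact permutation p-values of the 8 single ratios were 0.3 to 1.0, before any adjustment. Against miR-93-5p, a member of the miR-17 family, the 3 EXO2 libraries were close together at 2.37, 2.36 and 2.25, whereas the EXO1 libraries were at 2.24, 4.33 and 5.44.

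**Figure D3:**
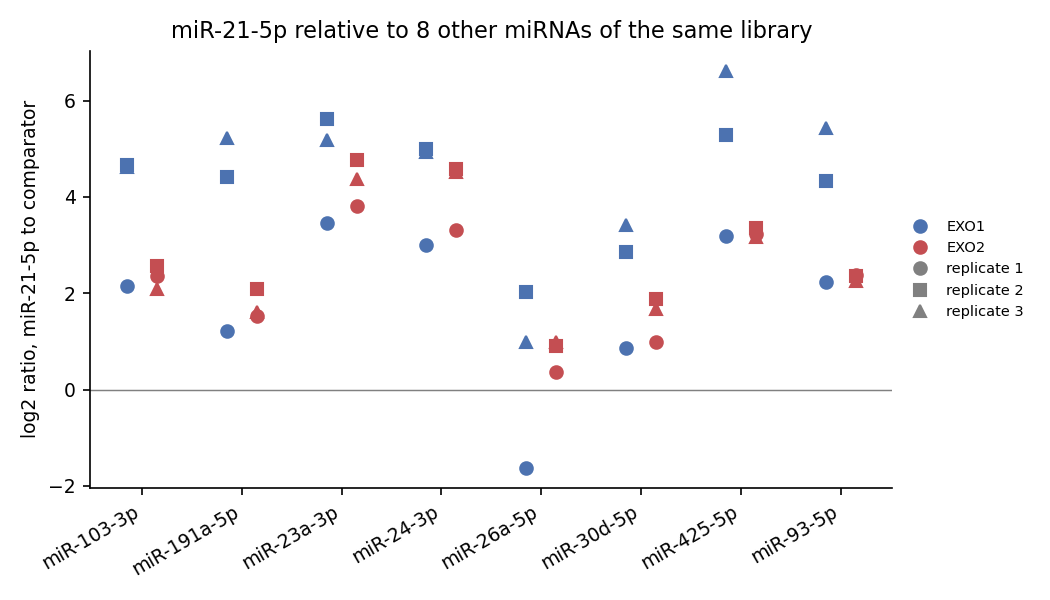
Log2 ratio of miR-21-5p to each of 8 other miRNAs in the same library (blue EXO1, red EXO2, symbols mark replicate numbers, grey line at equal levels). EXO1 replicate 1 lies below the other EXO1 libraries for every comparator, and for miR-26a-5p it falls below the line, at -1.63.

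miR-21-3p, the strand that is mostly discarded, was present at a small fraction of the level of miR-21-5p. Its level was 3.8, 73.8 and 222 normalized CPM in EXO1, against 23.9, 22.3 and 34.3 in EXO2. As with the guide strand, EXO1 replicate 1 was the lowest and EXO1 replicate 3 the highest of all libraries. The means were 99.7 ± 111 and 26.8 ± 6.55 (SD, n = 3 each). The difference of EXO2 minus EXO1 was -0.66 on the log2 scale (standard error 1.39, limma adjusted p = 0.799), and it was 0.53 without EXO1 replicate 3 and -2.24 without EXO1 replicate 1. The value of EXO1 replicate 1 rests on 6 reads, where a count of 0 would allow up to 3 reads or 1.90 normalized CPM.

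The share of miR-21-3p among the reads of both arms was 0.0429%, 0.186% and 0.307% in EXO1, against 0.179%, 0.113% and 0.192% in EXO2. The 95% Wilson intervals were 0.0197% to 0.0936%, 0.167% to 0.207% and 0.288% to 0.326% in EXO1. They were 0.148% to 0.216%, 0.0947% to 0.135% and 0.162% to 0.228% in EXO2. These intervals cover counting error only and are no test between libraries or groups. The EXO2 shares lay within the range of the EXO1 shares. The log2 ratio of miR-21-5p to miR-21-3p was 9.53 ± 1.48 in EXO1 and 9.31 ± 0.42 in EXO2 (SD, n = 3 each), a difference of -0.22 (2-sided exact permutation test, p = 0.9, with 0.1 the smallest possible). Without EXO1 replicate 1, the library with 6 reads of the 3p arm, the difference was 0.61 (exact permutation p = 0.3).

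**Figure D4:**
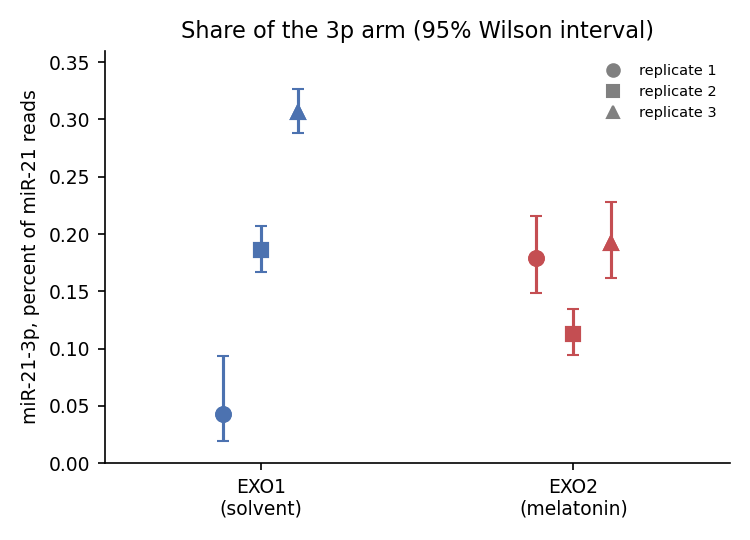
Share of miR-21-3p among the reads of both arms in each library, in percent, with 95% Wilson intervals of the counts as bars. The EXO1 points run from 0.0429% to 0.307%, and the EXO2 points lie between them.

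The excess of the guide strand of miR-21 was large beside that of most other precursors. Among 38 precursors with both arms above 0 in all 6 libraries, miR-21 had the second highest mean log2 ratio of 5p to 3p, 9.42, after miR-30d at 10.5. When the direction of the excess was ignored, it was the third, as miR-148a favoured its 3p arm by 11.5. The median excess of the 38, in either direction, was 4.0. The log2 ratio of miR-21 moved by 2.84 between its lowest and highest library, against a median range of 4.63 over the 38, and 29 of the 38 had a larger range. Precursors with either arm at 0 in a library were left out.

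In normalized CPM, miR-21-5p had the widest range over the 3 EXO1 libraries among the miRNAs that always ranked near the top. This width rested on EXO1 replicate 1. A range between libraries depends on the scaling, and the ranking was not repeated with other scalings. There were 8 miRNAs among the 20 most abundant in all 6 libraries: miR-21-5p, miR-148a-3p, miR-26a-5p, the endothelial miR-126a-3p, the erythroid miR-451-5p, and let-7i-5p, let-7g-5p and let-7f-5p of the let-7 family. Within EXO1 the highest value of miR-21-5p was 8.14 times the lowest, whereas the other 7 ranged from 1.71 times for let-7i-5p to 4.57 times for let-7f-5p. Without EXO1 replicate 1, a comparison added after the values were seen, the ratio of miR-21-5p was 1.82 times, below that of miR-26a-5p at 3.72, miR-126a-3p at 2.53, let-7f-5p at 2.0 and miR-148a-3p at 1.95. Without EXO1 replicate 3 it was 4.47 times, still above the other 7. Within EXO2, miR-21-5p had 1.48 times, inside the range of 1.16 times for miR-26a-5p to 2.04 times for let-7i-5p. Over the 223 miRNAs above 0 in all libraries, the median was 3.90 times in EXO1 and 2.08 times in EXO2. In EXO1, 51 of these 223 had a larger ratio than miR-21-5p, and in EXO2, 176 had. For miR-21-3p the ratio was 58.3 times in EXO1, exceeded by 8 of the 223, and 1.54 times in EXO2.

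The miRNAs whose levels followed those of miR-21-5p most closely over the 6 libraries were miR-140-5p, its own other arm, miR-29a-3p, miR-100-5p and miR-27a-3p. miR-140-5p is known from cartilage, miR-29a-3p represses collagen genes, miR-100-5p is abundant in vascular and mesenchymal cells, and miR-27a-3p is known from endothelial and fat cells. Their mature sequences are shown with the seed in capitals here as well, and none of them shares the seed of miR-21.
rno-miR-140-5p: cAGUGGUUuuacccuaugguag
rno-miR-29a-3p: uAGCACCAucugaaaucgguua
rno-miR-100-5p: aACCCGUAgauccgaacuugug
rno-miR-27a-3p: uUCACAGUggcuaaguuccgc
Likeness was measured by Pearson's r on log2(normalized CPM + 1), over the 222 other miRNAs above 0 in all 6 libraries. The libraries share their scaling factors with every miRNA, so r depends on the scaling.

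The level of miR-140-5p was 36.1, 138 and 182 normalized CPM in EXO1, against 51.4, 53.5 and 64.4 in EXO2. It had the same lowest library and the same 2 highest libraries as miR-21-5p, with r = 0.98 and Spearman's rho = 0.94 (exact permutation p = 0.00417 and 0.0167). Adjusted over the 222 comparisons these were 0.463 and 0.719. No correlation passed after adjustment (at an unadjusted exact p under 0.05, 17 by r and 5 by rho). The 6 libraries have only 720 orders, so over 222 comparisons no miRNA could pass on its own, however close its relation. Passing needed many miRNAs with the smallest p-values at once, so the adjusted values cannot decide whether a relation exists. Without EXO1 replicates 3 and 1, the libraries farthest from the median of miR-21-5p, r of miR-140-5p was 0.95 over 4 libraries.

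miR-29a-3p stood at 604, 1771 and 3217 normalized CPM in EXO1, against 1086, 1051 and 769 in EXO2, so it too was lowest in EXO1 replicate 1 and highest in EXO1 replicate 3. Its r with miR-21-5p was 0.95 and rho 0.83 (exact permutation p = 0.00833 and 0.0583, adjusted 0.463 and 0.719). For miR-21-3p, r was 0.96 and rho 0.83 (exact permutation p = 0.00556 and 0.0583, with the same adjusted values). miR-100-5p had r = 0.89 and rho = 0.83 (exact permutation p = 0.0208 and 0.0583, adjusted 0.463 and 0.719), and miR-27a-3p had r = 0.87 and rho = 0.71 (exact permutation p = 0.0292 and 0.136, adjusted 0.463 and 0.895). Without the same 2 libraries r was 0.78 for miR-29a-3p, 0.89 for miR-21-3p, 1.0 for miR-100-5p and 0.45 for miR-27a-3p, so the relation of miR-27a-3p rests largely on them. A group holds 3 libraries, too few for a correlation within it, and r over the deviations from the group means was 0.84 for miR-27a-3p and 0.94 to 0.98 for the other 4.

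At the other end were let-7f-5p, a member of the let-7 family that restrains growth genes, miR-423-5p, which is abundant in plasma, and the neuronal miR-128-3p, with r = -0.89, -0.89 and -0.88 and rho = -0.83, -0.83 and -0.89. Their exact permutation p-values were 0.0167, 0.0181 and 0.0236 for r, adjusted 0.463 each, and 0.0583, 0.0583 and 0.0333 for rho, adjusted 0.719 each. let-7f-5p had 37888, 16558 and 8285 normalized CPM in EXO1, the reverse of the order of miR-21-5p there, and 21065, 29885 and 33908 in EXO2. Without EXO1 replicates 3 and 1, r was -0.54 for let-7f-5p, -0.62 for miR-423-5p and -0.89 for miR-128-3p. When the libraries were scaled by their totals alone these values became 0.34 for let-7f-5p, -0.08 for miR-423-5p and 0.02 for miR-128-3p, so the negative correlations were not independent of the scaling. The 5 high correlations were 0.96 to 0.99 with that scaling, under which 203 of the 222 miRNAs had a positive r and the median r was 0.62, against -0.08 before. Of the 5, 3 were still among the 5 highest with library totals, and 4 with each of the other scalings.

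**Figure D5:**
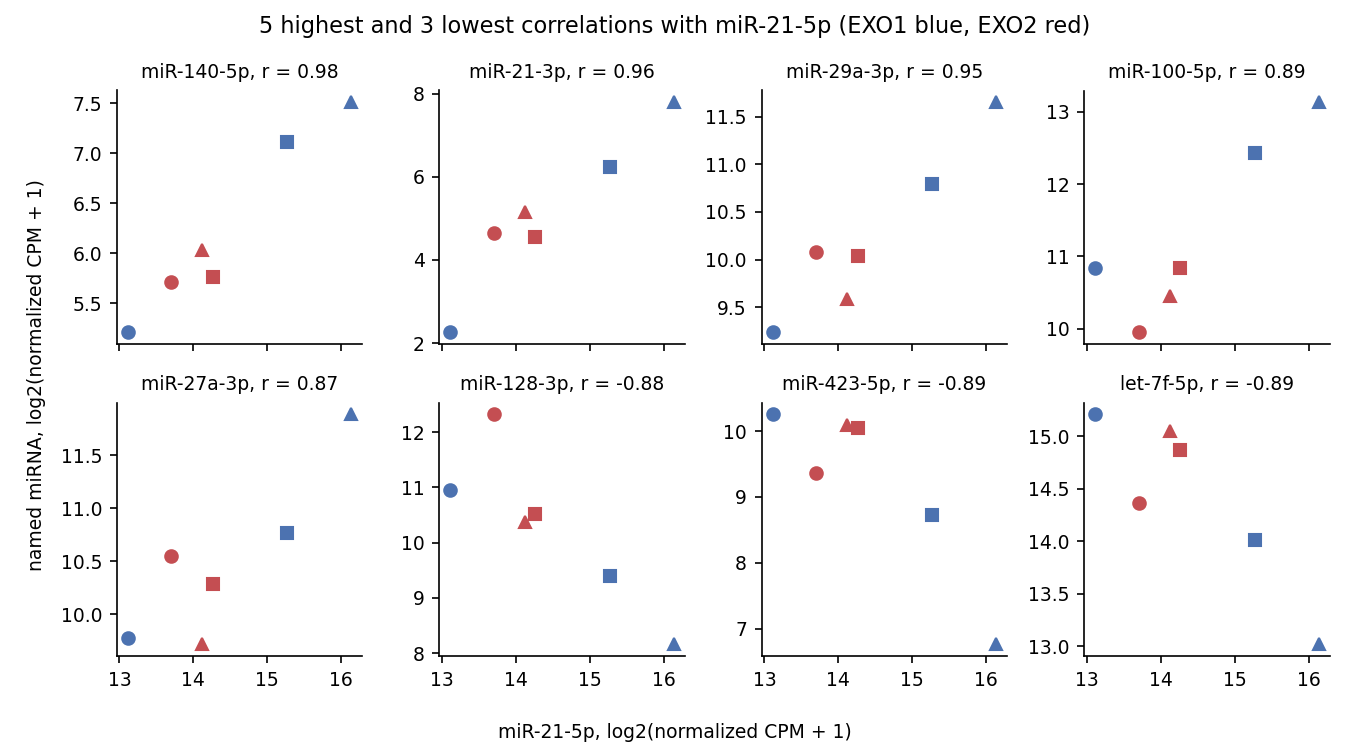
Level of each named miRNA against that of miR-21-5p in the 6 libraries, both as log2(normalized CPM + 1), for the 5 highest and 3 lowest Pearson correlations (blue EXO1, red EXO2). In the 5 first panels the level goes up with that of miR-21-5p, with r of 0.87 to 0.98, and in the 3 last it goes down, with r of -0.89 to -0.88.

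A list of miRNAs of smooth muscle and fibroblasts, where miR-21 is abundant, was highest as a whole in the library in which miR-21-5p was highest. Its largest member in that library, EXO1 replicate 3, was miR-143-3p at 71664 normalized CPM. miR-10b-5p was instead highest in EXO1 replicate 1, at 6807 against 2148 in EXO1 replicate 3. The other measured members were highest in EXO1 replicate 3. The 11 measured of 12 listed took 0.941%, 5.43% and 22.6% of all reads in EXO1, against 2.41%, 2.15% and 1.41% in EXO2, with none of the 11 at 0 in any library. Outside the erythrocyte and muscle miRNAs they took 9.85%, 10.3% and 25.8% in EXO1 and 5.86%, 6.32% and 4.49% in EXO2. EXO1 replicates 1 and 2 were thus close in this list while miR-21-5p took 2.49% of these reads in the former and 15.2% in the latter. The part of these cells in the level of miR-21 was not tested. Liver miRNAs took 7.07%, 1.90% and 11.6% of the same reads in EXO1 and 1.55% to 2.63% in EXO2. Platelet miRNAs took 4.57%, 5.39% and 9.26% in EXO1 and 6.69% to 7.49% in EXO2. Both of these lists were thus also highest in EXO1 replicate 3. The platelet list is not independent of the smooth muscle and fibroblast list, since both hold miR-199a-3p. At 24434 normalized CPM, miR-199a-3p was the largest member of the platelet list in EXO1 replicate 3. Leukocyte miRNAs took 1.09%, 1.05% and 0.699% in EXO1 and 1.32% to 1.43% in EXO2, so this list was instead lowest in EXO1 replicate 3.

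Other miRNAs of injury and fibrosis gave a mixed picture between the groups. Of 10 miRNAs reported to promote fibrosis or to rise with injury, none passed an adjusted p of 0.05, and 2 were called lower by the thresholds of the methods, miR-199a-3p and miR-214-3p, against 13.2% of all miRNAs in either direction. Their log2 fold changes were -1.62 and -2.93 (adjusted p = 0.342 each from limma). In 2 of the 10, miR-199a-3p and miR-199a-5p, every EXO2 library was below every EXO1 library, as in 9.51% of all miRNAs. In 1 of the 10, the myeloid miR-223-3p, every EXO2 library was above, as in 11.5%. The median log2 fold change of the 10 was -0.74, against -0.56 over all miRNAs and -0.81 for miR-21-5p. Over the 256 miRNAs with 10 or more in at least 3 libraries the median was -0.055. The p53-responsive miR-34a-5p stood at 8.24, 108 and 395 normalized CPM in EXO1, against 33.6, 192 and 81.4 in EXO2, the same order as miR-21-5p within EXO1. Of 16 miRNAs reported to restrain fibrosis, 8 had positive and 8 negative values, with a median of -0.0033, and the hepatocyte miR-122-5p was the only 1 called by the thresholds of the methods, with a log2 fold change of -2.45 (adjusted p = 0.297 from limma).

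Of 12 miRNAs that respond to TLR4 and NF-κB or act on this pathway, as miR-21 does, 6 had positive and 6 negative values. Their median log2 fold change was 0.0081. Over all miRNAs there were 154 positive and 256 negative values, with a median of -0.56. Over the miRNAs with 10 or more in at least 3 libraries the median was -0.055, near that of this list. The list does not hold miR-100-5p and miR-199a-5p, which the study names as regulators of TLR4. The log2 difference of miR-100-5p was -1.72 (limma adjusted p = 0.313) with overlapping groups, and that of miR-199a-5p was -1.59 (limma adjusted p = 0.342). The thresholds of the methods called miR-9a-5p, which is induced by TLR4 in human monocytes, at 1.71 and miR-146b-5p, a repressor of TLR4 signaling adaptors, at -2.07 (adjusted p = 0.297 each from limma), 2 of 12 against 13.2% of all miRNAs. miR-155-5p, the classic inflammatory miRNA of macrophages, stood at 46.9, 60.4 and 200.1 normalized CPM in EXO1, against 81.5, 95.8 and 127 in EXO2. The groups overlapped, with a log2 difference of 0.26 (standard error 0.81, limma adjusted p = 0.872). miR-146a-5p, a repressor of the same adaptors, stood at 1616, 882 and 1838 in EXO1, against 989, 852 and 851 in EXO2. These groups overlapped as well, with a log2 difference of -0.62 (standard error 0.50, limma adjusted p = 0.490). Several members of these lists, miR-199a, miR-122, miR-146b and miR-9a among them, had been picked by the study from these libraries for their direction, so their counts are no independent evidence of it.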

How the data were processed

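Small RNA was sequenced in 6 libraries of plasma exosomes. Reads were trimmed by the authors and, where 15 nucleotides or longer, assigned to miRNAs by miRDeep2. Their processing notes also list Bowtie, cutadapt 1.14 and edgeR 3.18.1. Genome build and miRNA release: not given in the sources used here. Signal values as deposited, headed CPM, are reads divided by a factor of the library, and 100% were whole multiples of 1 step per library (relative tolerance 1e-06), from which reads, shares and Wilson intervals were computed. No count model was used, since the deposited values are normalized, and most libraries held few low values to establish the step. 2 further columns hold the authors' group means and were not used. Of 468 rows, 420 miRNAs were kept (the row with the highest sum for 43 repeated miRNAs). The 410 miRNAs above 0 in 2 or more libraries entered a limma fit (limma 3.58.1, R 4.3.3, mean-variance trend, no covariate) on log2(value + 1), with Benjamini-Hochberg adjustment over all of them. Ratios and shares were compared by 2-sided exact permutation tests, and correlations over the 720 orders of the 6 libraries. The fit was checked on simulated data. The members and lists were chosen with earlier results of these data known. Named miRNAs were both arms, miRNAs sharing a seed with them, those always among the 20 most abundant, the neighbours of miR-21-5p in level, the 5 highest and 3 lowest correlations, and list members. Alternatives concerned scaling, filter, repeated rows, pseudocount, variance, a replicate block, comparators and left-out libraries. Python 3.11.15, numpy 2.4.6, pandas 2.3.3, scipy 1.17.1 and statsmodels 0.14.6 were used. Sequences are from RefSeq (GRCr8).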

Additional observations from a re-analysis of the deposited data

How the results depend on the processing

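The log2 fold change of miR-21-5p was negative and not past an adjusted p of 0.05 in all 16 alternatives, from -1.67 to -0.16, both ends being reached by leaving out an EXO1 library (replicate 1 and replicate 3). That of miR-21-3p ranged from -2.24 (without EXO1 replicate 1) to 0.53 (without EXO1 replicate 3) when 1 library was left out. The log2 ratio of the arms ranged from -0.81 (without EXO1 replicate 3) to 0.61 (without EXO1 replicate 1), the ratio to the comparators was 0.29 with miR-26a-5p alone, and the share outside erythrocyte and muscle miRNAs kept its sign, from -8.52 to -2.16 percentage points. Why these values turned was not tested beyond the left-out libraries themselves. The correlation of let-7f-5p was 0.34 and that of miR-128-3p 0.0175 with scaling by library totals. The count of 54 became 30 with library totals only, and 33 (without EXO2 replicate 3) to 103 (without EXO1 replicate 1) when 1 library was left out. The count of 0 past an adjusted p in limma became 1 without moderation of the variances (miR-130b-5p) and 0 to 2 when 1 library was left out (miR-184 and miR-363-3p without EXO1 replicate 1), all named after their values were seen. With the replicate number as a block it was 2 (miR-1b and miR-206-3p), and miR-21-5p stayed at -0.81 (adjusted p = 0.660 from limma). Deviations of same-numbered libraries correlated at -0.04, 0.06 and -0.12, and not every library correlated best with its own number. Deviations from a mean of 3 libraries are not independent, so these values cannot decide whether same-numbered libraries are paired. Depth limits miR-21-3p in EXO1 replicate 1, with 6 reads.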

Other observations

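Over the lists, the correlations with miR-21-5p, given as descriptions over 6 libraries that share their scaling, differed in sign. Of 11 smooth muscle and fibroblast miRNAs compared, 10 had positive r (median 0.63, highest 0.89). Of 10 miRNAs reported to promote fibrosis, 8 had positive r (median 0.68, highest 0.87 for miR-34a-5p). Both lists hold miR-143-3p, miR-145-5p, miR-199a-3p, miR-199a-5p and miR-214-3p, so they are not independent of each other. Of 10 erythrocyte miRNAs, 9 had negative r (median -0.75), as had all 6 muscle miRNAs above 0 in every library (median -0.48). The median over all 222 miRNAs was -0.08, and 101 of the 222 had a positive r. With library totals only, a comparison by list added after the values were seen, all 10 erythrocyte miRNAs had a positive r (median 0.33) and the median over all 222 was 0.62, whereas the muscle list stayed at -0.38 with 5 of 6 negative. The smooth muscle and fibroblast list then had 11 of 11 positive (median 0.86) and the list reported to promote fibrosis 10 of 10 (median 0.87). With that scaling 203 of all 222 were positive, so such counts are near the share of all miRNAs. Of 16 miRNAs reported to restrain fibrosis, 11 had positive r, among them miR-29a-3p at 0.95, miR-29b-3p at 0.64 and miR-29c-3p at 0.36, which share a seed. The lowest of the 16 was miR-133a-3p at -0.67. With totals that left out the erythrocyte and muscle miRNAs, likewise compared after the values were seen, 8 of these 16 had positive r (median 0.02). The smooth muscle and fibroblast list then had 9 of 11 positive (median 0.47), and the list reported to promote fibrosis 9 of 10 (median 0.51). The median over all 222 was -0.14 with this scaling, and 90 of the 222 had a positive r.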
